A study of Drosophila melanogaster with 12 samples.

Results

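Testes in which the Mediator subunit Med22 had been knocked down in spermatocytes (Med22RNAi) were compared directly with testes mutant for spermatocyte arrest (sa), which encodes a testis-specific TAF. The comparison takes 6 of the 12 arrays of the series, 3 Med22RNAi arrays and 3 sa arrays, chosen by their genotype labels alone, and covers all 18769 Drosophila probe sets on the array. Med22RNAi flies carried UAS-Dicer2 and the germ cell driver Bam-Gal4 and a long-hairpin RNAi line against Med22, so that the hairpin was made in late spermatogonia and spermatocytes and the somatic cells of the testis were not targeted. The sa flies carried the sa1 and sa2 alleles in trans in all cells. The other 6 arrays, 3 of aly mutant testes (aly2/aly5P) and 3 of control testes labelled y,w and called wild type here, although the methods name red,e for the published control arrays, serve only to place the levels. All testes came from 1-day-old adults kept at 25 °C and were taken without the seminal vesicle and accessory glands, and each array started from 250 ng of total RNA.

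Mediator is a large complex that passes the state of DNA-bound regulators on to RNA polymerase II. The testis TAFs (tTAFs) are paralogs of subunits of the general factor TFIID, and tMAC, to which Aly belongs, is the testis version of the Myb-MuvB/dREAM complex. In Drosophila testes all 3 are needed in spermatocytes to turn on genes for the building of sperm. The study reports that tMAC and Med22 are also needed for transcripts of the meiotic cell cycle, for which the tTAFs were dispensable. Without any of the 3, spermatocytes stop at the entry to meiosis I and fill the testis.

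The values were log2 signals, 1 per probe set and array, and a difference is given as Med22RNAi minus sa, so that a positive value means higher in Med22RNAi testes. The number of arrays limits the precision. Across probe sets the correlation was 0.994 to 0.997 between Med22RNAi arrays, 0.989 to 0.996 between sa arrays and 0.946 to 0.958 between the genotypes. The array medians were 4.15 to 4.25 in Med22RNAi and 3.91 to 4.02 in sa, and 45.8% to 46.5% of the probe sets lay below a log2 of 3 on each of the 6 arrays. sa replicate 2 stood apart: its actin signal was 2.24 higher at the 3′ than at the 5′ end, against 1.06 and 1.12 on the other sa arrays, while the Med22RNAi arrays had 1.35 to 1.59. The added dap control RNA showed the same kind of gap at 3.0 to 3.31 on Med22RNAi arrays and 1.53 to 2.01 on sa arrays, and 18S rRNA was at 12.8 to 13.1 against 5.90 to 11.1. The Med22RNAi arrays were made for the study and the sa and aly arrays had been published before, as had the red,e control data that the methods name. On the wild-type arrays the dap gap was 1.12 to 1.75 and 18S rRNA was at 6.08 to 6.53. An effect of the array set and an effect of the knockdown therefore cannot be told apart, and the driver was not measured without a hairpin. The Med22RNAi arrays are described as biological replicates. Nothing states that the sa arrays came from separate animals, so that p-values may measure technical spread only. The arrays measured whole testes, in which fewer cells of a type and less RNA per cell cannot be told apart.

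The gene sa had log2 levels of 10.34, 10.63 and 10.49 in Med22RNAi testes, against 5.98, 5.54 and 6.01 in sa testes, with 10.84 on average in wild type. The groups did not overlap, and the difference was 4.64 ± 0.14 (SE, n = 3 each, adjusted p = 1.18e-07 from limma). MED22 itself was not analysed here. Dcr-2, the nuclease that is overexpressed together with the hairpin, was at 9.59, 9.86 and 9.67 in Med22RNAi against 9.28, 8.56 and 9.16 in sa, a difference of 0.71 ± 0.20 that passed the adjusted p (0.0244) but not 4-fold.

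The 2 arrests differed in both directions and by similar numbers. A call required an adjusted p under 0.05 from limma and at least 4-fold. By this rule 857 probe sets were higher (4.57%) and 802 were lower (4.27%) in Med22RNAi than in sa. On each of these 1659 the 3 arrays of one genotype did not overlap those of the other. The calls were made on these same arrays, so that this separation largely follows from the rule and adds no support of its own. Called probe sets with 1 gene symbol stood for 712 genes that were higher and 708 that were lower. The balance depended on the scaling. Setting the array medians equal moved every difference by -0.22 and gave 706 higher and 1010 lower, so that 41.1% of the calls were higher instead of 51.7%.

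**Figure D1:**
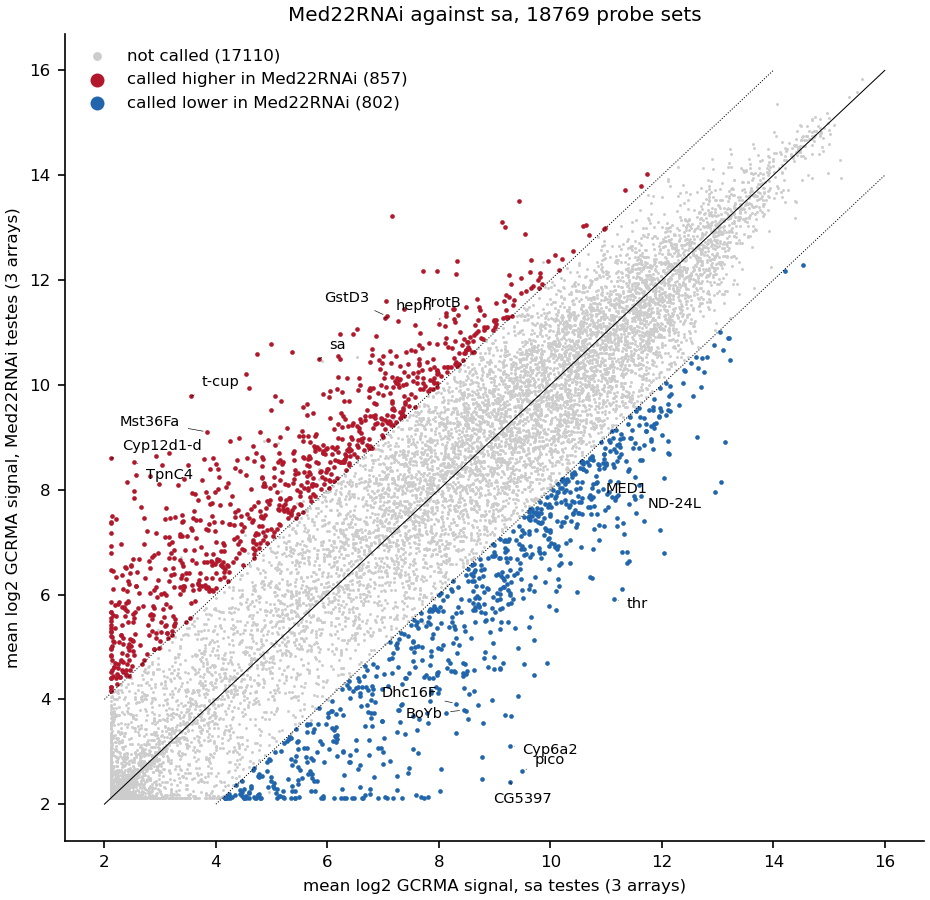
Mean log2 signal of each probe set in sa testes (x axis) and Med22RNAi testes (y axis), 3 arrays each. Red points are the 857 probe sets called higher and blue points the 802 called lower in Med22RNAi; the solid line marks equal levels and the dotted lines 4-fold, and the named points are described in the text.

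The levels in wild type separated different kinds of difference, described here without a test. Of the 857 probe sets higher in Med22RNAi, 464 had a wild-type level within 2-fold of the level in sa, with medians of 7.52 in Med22RNAi, 4.29 in sa and 4.16 in wild type. These transcripts were high on the Med22RNAi arrays and low on those of sa and wild type. Here too an effect of the array set and of the knockdown cannot be told apart. Another 170 were at least 2-fold higher in wild type than in either arrest, with medians of 8.68 in Med22RNAi, 5.66 in sa and 11.80 in wild type. They were lost further in sa than in Med22RNAi, and in aly, with a median of 2.74, further still. In 150 wild type lay at least 2-fold below both, and in 44 it lay within 2-fold of Med22RNAi.

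Of the 802 probe sets lower in Med22RNAi, 333 had a wild-type level within 2-fold of Med22RNAi, with medians of 5.65 in Med22RNAi, 8.46 in sa and 5.63 in wild type. The aly median of this group was 8.44, close to that of sa. In 195 the wild-type level was within 2-fold of sa, with medians of 6.70 in Med22RNAi, 9.53 in sa and 9.28 in wild type. In 132 it lay between the 2 arrests and in 100 above both, and in 42 it lay below both. The aly mean lay nearer to the sa mean than to the Med22RNAi mean for 719 of the 857 higher and 530 of the 802 lower probe sets. The aly and sa arrays belong to the same earlier set, which this count cannot be separated from.

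Some transcripts that spermatids use were better kept in Med22RNAi than in sa. The strongest case was t-cup, one of the cup genes transcribed after meiosis. Its log2 level was 10.67, 8.68 and 10.01 in Med22RNAi testes and 2.85, 2.61 and 5.22 in sa testes, against 12.30 in wild type. Every Med22RNAi array lay far above every sa array, of which replicate 3 was highest, and the difference was 6.22 ± 0.70 (SE, adjusted p = 0.000159). w-cup, another cup gene, was at 13.47, 12.34 and 13.22 against 9.07, 7.77 and 10.74, a difference of 3.82 ± 0.64 (adjusted p = 0.00163). The groups were apart in the same direction in scpr-C (difference 3.55) and sowi (2.57), the other members of the list of comet and cup genes that were called higher. That list held 4 higher genes and 1 lower gene among 16 measured (25% and 6.25%, where 4.57% and 4.27% of all probe sets were called). Its median difference was 0.61 beside 0 over all probe sets.

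The lower gene of the list was hale. It stood at 8.80, 8.18 and 8.76 in Med22RNAi and 10.88, 11.07 and 10.94 in sa, against 12.58 in wild type, and was lower in Med22RNAi by a difference of -2.38 (SE 0.15, adjusted p = 6.19e-06). h-cup, p-cup, boly and m-cup had differences between -0.78 and -0.49 and were not called, and c-cup, sunz and f-cup had differences of 0.90 to 1.34 and were not called. The cup genes therefore lay on both sides of 0.

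Protamine-like and sperm tail genes showed a similar split between a few large differences and many small ones. ProtB, a protamine-like protein that replaces histones in the sperm nucleus, was at 11.42, 10.75 and 11.33 in Med22RNAi and 7.76, 7.53 and 8.73 in sa, a difference of 3.16 ± 0.35 (adjusted p = 0.000146). ProtA, its close paralog, was at 12.99, 12.60 and 12.96 against 10.57, 10.59 and 10.95, a difference of 2.15 ± 0.17 that fell to 1.93 and below 4-fold with medians set equal. Because the 2 protamine genes are near copies, their probe sets may read both. Of 8 genes for sperm chromatin 2 were higher and 1, mamo, was lower (25% and 12.5%, where 4.57% and 4.27% of all probe sets were). mamo, a zinc finger factor of germ cells, was at 3.32, 2.90 and 2.93 in Med22RNAi, 7.41, 7.83 and 7.34 in sa and 9.78 on average in aly, in 1 of its 5 probe sets. Another of its probe sets differed by 1.93 in the opposite direction (adjusted p = 0.000497), without reaching 4-fold.

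Mst36Fa, a gene of the male-specific transcript group, was at 9.30, 8.74 and 9.26 in Med22RNAi and 3.54, 2.66 and 5.33 in sa, against 11.50 in wild type. The difference was 5.26 ± 0.66 (adjusted p = 0.000305). dj, which encodes don juan of the sperm tail, was at 9.03, 7.96 and 8.70 against 6.33, 5.03 and 7.04, a difference of 2.43 that dropped to 1.88, below 4-fold, without sa replicate 2. These 2 were the calls among 17 sperm tail genes (11.8%, where 4.57% of all probe sets were higher), whose median difference was 0.39. janB of the janus and ocnus cluster, a gene expressed in spermatids, was at 13.21, 12.73 and 13.15 in Med22RNAi and 10.60, 9.96 and 11.19 in sa (difference 2.45 ± 0.27, adjusted p = 0.00015). The uncharacterised genes CG10317 and CG31867 had the same profile, with wild-type levels of 13.09 and 10.63 and differences of 5.85 and 5.43. lobo, chosen after its values were seen, was at 8.81, 7.92 and 8.71 in Med22RNAi and 3.19, 2.96 and 4.34 in sa, against 11.83 in wild type. These values are from 1 of its 2 probe sets. The other averaged 2.17 in both arrests and 8.36 in wild type, and so did not differ between them.

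Among the testis paralogs of respiratory chain subunits 1 of 21 was higher and 1 was lower (4.76% each, where 4.57% and 4.27% of all probe sets were called). COX6AL2, a testis form of a cytochrome c oxidase subunit, was at 9.87, 8.87 and 9.64 in Med22RNAi and 5.70, 4.52 and 6.98 in sa, with 12.64 in wild type (difference 3.73 ± 0.54, adjusted p = 0.0007). ND-24L, a testis form of a complex I subunit, was at 7.83, 7.58 and 8.05 in Med22RNAi and 11.34, 11.86 and 11.35 in sa, with 12.31 in wild type (difference -3.70, SE 0.27, adjusted p = 1.15e-05). The groups were apart in each gene, in opposite directions. Among 27 core subunits none was called, with 6 higher and 5 lower at an adjusted p under 0.05 alone. Tim17a1, a testis form of a mitochondrial import subunit, was higher by 2.07 in Med22RNAi but below 4-fold at 1.78 without Med22RNAi replicate 1, and Hsc70-1, a testis-enriched chaperone of the Hsp70 family, was higher by 2.73.

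Other sperm genes were kept in sa near or closer to their wild-type level and were lower in Med22RNAi. Dhc16F, a dynein heavy chain, was at 4.41, 3.74 and 3.60 in Med22RNAi, 8.09, 8.39 and 8.47 in sa, 2.93 in aly and 9.83 in wild type, a difference of -4.40 (SE 0.21, adjusted p = 1.42e-06). Dhc98D, another dynein heavy chain, was lower by a difference of -2.04, which moved to -1.82 without Med22RNAi replicate 3. They were the 2 called among 14 axonemal dyneins and tektins (14.3%, where 4.27% of all probe sets were lower), of which 5 lay below 3 on all 6 arrays. Hex-t1, a testis hexokinase, was at 6.13, 5.48 and 6.09 in Med22RNAi and 8.26, 8.55 and 8.83 in sa (difference -2.65), whereas its paralog Hex-t2 had a difference of 0.76 (adjusted p = 0.0502) and the general hexokinase Hex-A one of 1.76. Klp59D, a kinesin with testis expression, was at 9.31, 9.04 and 9.41 in Med22RNAi and 11.79, 11.52 and 11.86 in sa (difference -2.47, SE 0.12), and its paralog Klp59C differed by -0.90. eIF3g2, a testis form of a translation initiation factor, differed by -2.16, which moved to -1.96 without sa replicate 2, while the general form eIF3g1 differed by -0.20.

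**Figure D2:**
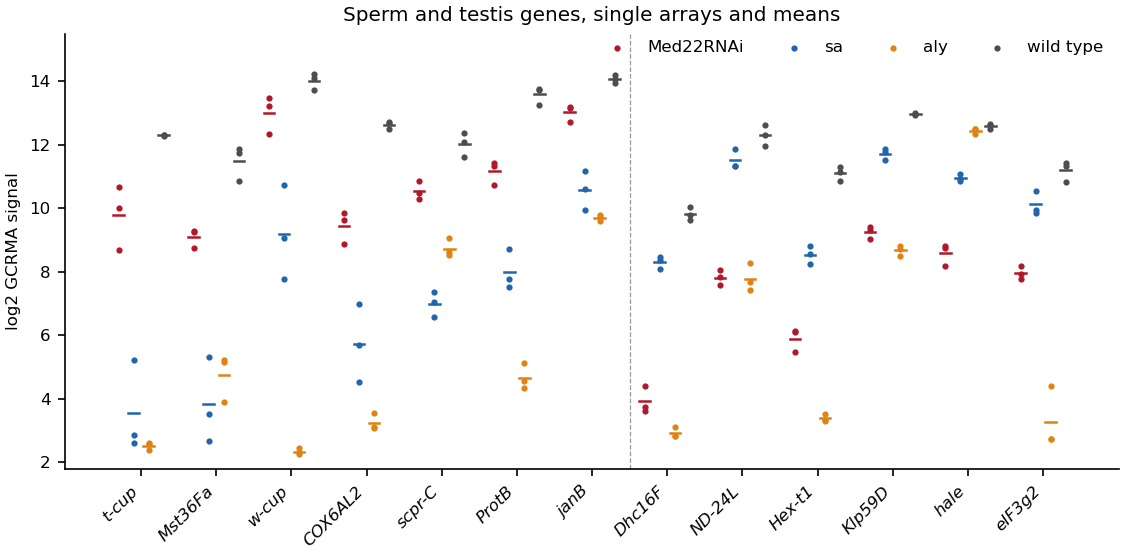
Log2 signal of 13 sperm and testis genes on single arrays (points, 3 per genotype) with the mean of each genotype (short bars), in Med22RNAi, sa, aly and wild-type testes. Left of the dashed line are genes higher in Med22RNAi than in sa, such as t-cup with 8.68 to 10.67 against 2.61 to 5.22; right of it are genes lower in Med22RNAi, such as Dhc16F with 3.60 to 4.41 against 8.09 to 8.47.

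Several genes within 2-fold of wild type in sa had larger differences than these sperm genes. CG11630 was at 4.20, 2.80 and 4.09 in Med22RNAi, 9.20, 9.11 and 9.26 in sa and 9.92 in wild type. CG12446 was at 5.15, 4.08 and 4.84 in Med22RNAi, 9.96, 10.08 and 9.79 in sa and 10.11 in wild type. Both were low in aly, at 3.53 and 2.42. Cyp309a2, a cytochrome P450, was at 4.61, 4.35 and 4.46 in Med22RNAi against 9.32, 10.31 and 9.51 in sa, with 10.67 in wild type and 4.58 in aly, a difference of -5.24 (SE 0.27, adjusted p = 1.84e-06). Mal-A6, a maltase, lay at the lowest value of the arrays, 2.11, on all 3 Med22RNAi arrays and at 7.30, 8.22 and 7.66 in sa, so that it was at least 26.5-fold lower in Med22RNAi, with a wild-type mean of 7.0. It was the only call among 18 genes of the gut list, of which 16 lay below 3 on all 6 arrays. CG13801, CG13558 and CG17636 followed the same order, at least 24.2-fold and at least 16.9-fold lower in Med22RNAi for the first pair and with a difference of -4.94 for CG17636.

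Genes that drive meiosis and that the study followed in whole testes differed by less than 4-fold between the arrests on the arrays. The study scored some of them otherwise. By in situ hybridization, or RT-PCR for boule, cycB, twine and boule transcripts were off in Med22RNAi spermatocytes and on in tTAF mutants. CG3927 was scored in the same way, and on the arrays it averaged 11.66 in Med22RNAi and 12.41 in sa. Whole-testis array signal and scoring in spermatocytes are unlike measures, and the gap was not tested. CycB, the cyclin B gene, was at 9.67, 9.62 and 9.73 in Med22RNAi and 9.65, 9.61 and 9.60 in sa, while aly averaged 4.27 and wild type 7.69. The difference was 0.05 ± 0.27 (adjusted p = 1). Its translational regulators Rbp4 and fest (CG9975) differed by -0.20 and 0.82, and neither passed the adjusted p. twe, the meiotic Cdc25 phosphatase, was at 6.56, 6.65 and 6.66 in Med22RNAi and 7.74, 7.28 and 7.65 in sa, a difference of -0.93 that passed the adjusted p (0.00907) but not 4-fold. bol, which encodes Boule, was at 11.56, 11.04 and 11.19 against 11.99, 10.54 and 12.32, so that the sa arrays surrounded the Med22RNAi arrays. fzo, needed for the fusion of mitochondria in spermatids, was at 7.33, 7.19 and 7.44 against 8.76, 8.22 and 8.79, with 10.36 in wild type and a difference of -1.27 (adjusted p = 0.000745). Among 10 measured genes of the study's in situ panel janB was the only call.

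Many transcripts that were lower in Med22RNAi had levels in sa, and in aly, above those in wild type. Some genes of the cell cycle and DNA replication were among them, and others were near wild type in sa or aly. thr, which encodes a separase subunit, was at 5.49, 5.92 and 6.31 in Med22RNAi and 11.18, 11.03 and 11.23 in sa, with 10.06 in aly and 7.54 in wild type. The difference was -5.24 (SE 0.20, adjusted p = 3.63e-07). Cks30A, a partner of cyclin-dependent kinases, was at 7.58, 7.76 and 7.65 in Med22RNAi and 10.92, 11.02 and 11.17 in sa, with 9.54 in aly and 9.32 in wild type. CycB3, a B-type cyclin, was at 8.38, 8.11 and 8.22 against 10.40, 10.60 and 10.16, and its wild-type mean of 10.16 was close to the level in sa. These were the 3 lower genes among 17 of the mitotic cell cycle (17.6%, where 4.27% of all probe sets were). CycE, the cyclin of S-phase entry, was the higher one, at 4.95, 4.87 and 5.66 in Med22RNAi and below 3 on every other array, at least 4.48-fold higher. The median of the list was 0.05, which turns negative with array medians set equal. cid, the centromeric histone H3 variant, and Brd8, a bromodomain gene, were chosen after their values were seen. cid was at 3.47, 3.91 and 3.51 in Med22RNAi and 8.30, 8.82 and 8.44 in sa, and Brd8 at 6.69, 6.71 and 6.41 in Med22RNAi and 11.23, 11.74 and 11.14 in sa. Both were high in aly too, at 8.92 and 11.28, and low in wild type, at 4.11 and 6.90.

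Among 21 DNA replication genes 4 were lower (19%, where 4.27% of all probe sets were) and none was higher, with a median difference of -0.71. Orc5, Orc2 and Orc4 among them encode subunits of the origin recognition complex. Orc5 was at 6.77, 6.90 and 7.03 in Med22RNAi and 10.48, 10.87 and 10.27 in sa (difference -3.64, SE 0.19, adjusted p = 1.96e-06). Orc2 was at 4.18, 4.42 and 4.70 against 7.68, 8.36 and 7.18, and Orc4 at 6.90, 7.14 and 7.05 against 9.17, 9.62 and 8.94. In each the 2 genotypes were apart. Psf1, a subunit of the GINS complex of the replication fork, was at 6.14, 6.06 and 6.50 in Med22RNAi and 9.98, 10.06 and 9.67 in sa. Wild-type means were 8.39 for Orc5, 4.53 for Orc2, 8.61 for Orc4 and 7.44 for Psf1. That of Orc4 was close to its mean of 9.25 in sa. At an adjusted p under 0.05 alone 9 of the 21 were lower and 2 were higher, where 16.6% and 16.7% of all probe sets were. PCNA, the sliding clamp, differed by -1.53 and Mcm6, of the replicative helicase, by -1.04, and Cdc6, a loading factor, by 1.29.

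Genes of the piRNA pathway, which silences transposons in the germ line, showed the same profile in 4 of 29 members. BoYb, a Tudor domain protein of the Yb family, was at 3.65, 3.79 and 3.94 in Med22RNAi and 8.51, 8.46 and 8.37 in sa, with 4.03 in wild type (difference -4.65, SE 0.41, adjusted p = 3.68e-05). Panx, which acts in transcriptional silencing, was at 7.66, 8.01 and 7.90 against 11.33, 11.08 and 11.14. tej, a Tudor domain protein of the nuage, was at 5.02, 5.61 and 5.42 against 8.35, 8.55 and 7.97, and krimp at 8.02, 8.20 and 8.13 against 10.34, 10.10 and 10.34. The exception was nxf2, a partner of Panx, which was higher by 2.23 in Med22RNAi, and 1.91 without sa replicate 3. In all, 13.8% of the list was called lower and 3.45% higher, where 4.27% and 4.57% of all probe sets were. At an adjusted p under 0.05 alone 9 were lower and 5 higher, where 16.6% and 16.7% of all probe sets were. The median over the 29 was -0.17.

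**Figure D3:**
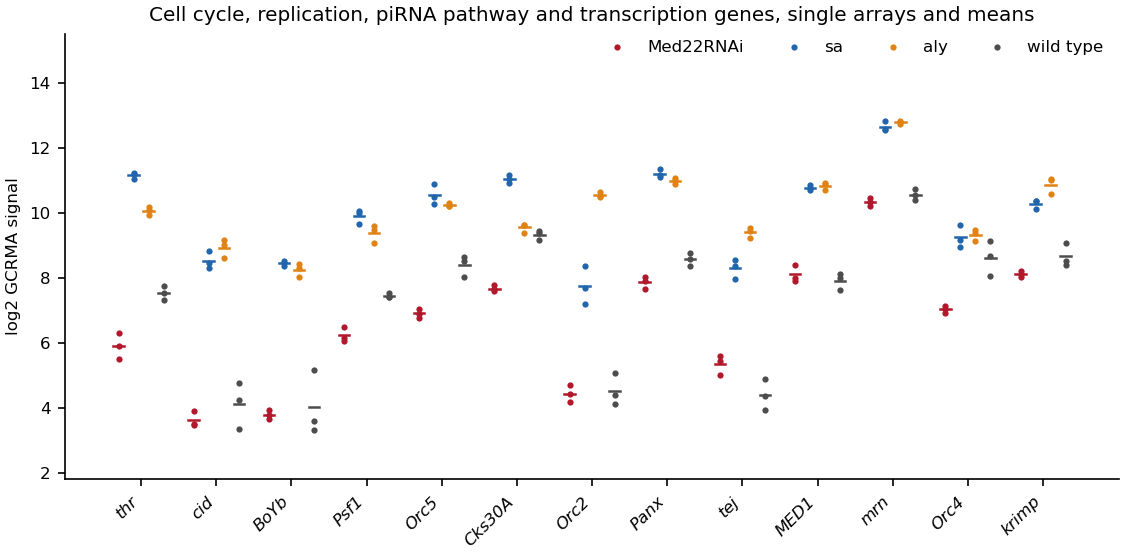
Log2 signal of 13 cell cycle, replication, piRNA pathway and transcription genes on single arrays (points, 3 per genotype) with the mean of each genotype (short bars), in Med22RNAi, sa, aly and wild-type testes. All 13 were lower in Med22RNAi than in sa; for thr the Med22RNAi arrays lay at 5.49 to 6.31 and the sa arrays at 11.03 to 11.23.

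Subunits of Mediator itself were among the transcripts that differed. MED1 was at 7.99, 8.40 and 7.91 in Med22RNAi and 10.76, 10.70 and 10.85 in sa, with 10.83 in aly and 7.91 in wild type (difference -2.67, SE 0.16, adjusted p = 3.77e-06). Cdk8, the kinase of the Mediator kinase module, was at 5.52, 5.55 and 5.64 against 7.83, 8.09 and 7.55, and MED25 at 5.78, 6.15 and 5.11 against 7.83, 7.92 and 7.89. The difference of MED25 moved to -1.92, below 4-fold, without Med22RNAi replicate 3. MED1, Cdk8 and MED25 made up 11.1% of the list, where 4.27% of all probe sets were lower, and no Mediator gene was called higher. Of the 27 measured, 14 were lower and 4 higher at an adjusted p under 0.05 alone, where 16.6% and 16.7% of all probe sets were. The median difference was -0.90. MED17 (1.13), MED21 (1.55), MED6 (0.60) and MED24 (1.73) were the 4. mrn, a subunit of the general factor TFIIH, was at 10.20, 10.44 and 10.33 in Med22RNAi and 12.58, 12.80 and 12.55 in sa. It was the only call among 22 genes of RNA polymerase II and its general factors (4.55%, where 4.27% of all probe sets were lower).

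Within the testis-specific regulators, differences were mostly smaller. comr, a tMAC gene, was lower by a difference of -2.14 (7.08, 7.45 and 7.37 against 9.52, 9.63 and 9.17), and no other of the 9 tMAC genes was called. topi differed by -0.20 and aly by 0.06. Of the tTAFs other than sa, nht differed by -1.43, can by -0.92 and mia by 1.37, all past the adjusted p and under 4-fold. Of 11 general TFIID genes 2 were called higher (18.2%, where 4.57% of all probe sets were) and none lower. At an adjusted p under 0.05 alone 3 were higher and 4 were lower, where 16.7% and 16.6% of all probe sets were. The lower ones were Taf10b (-1.46), Taf6 (-1.29), Taf5 (-1.26) and Taf12 (-0.55), and Tbp was higher by 1.23. Taf1, the largest TFIID subunit, was at 11.43, 11.62 and 11.38 in Med22RNAi and 8.79, 8.79 and 8.59 in sa (difference 2.76 ± 0.12, adjusted p = 6.78e-07), with 11.57 in aly. Taf4, the general paralog of the tTAF nht, was at 8.97, 9.07 and 8.67 against 6.04, 5.49 and 5.54 (difference 3.21 ± 0.19). The median of the list was -0.25.

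Hsp68, an inducible heat shock protein, was at 10.41, 10.23 and 10.77 in Med22RNAi and 13.36, 13.16 and 13.15 in sa, with 13.37 in aly and 11.28 in wild type (difference -2.75, SE 0.14, adjusted p = 1.6e-06). It was the only lower gene among 16 of the heat shock list. The mitochondrial ribosomal proteins had no call among 69, with a median of -0.42. At an adjusted p under 0.05 alone 26 were lower and 3 higher, where 16.6% and 16.7% of all probe sets were. In all, 14 of the 51 gene lists had no call, among them the Y-linked genes (7 measured), the testis proteasome paralogs (12), the core proteasome (26), the sperm leucyl aminopeptidases (6), the tubulins (9) and the seminal fluid genes (24).

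Some transcripts were detected only in sa. Of the 802 lower probe sets 38 lay below a log2 of 3 on all 9 arrays of the other genotypes. CG5397 was at 2.44, 2.42 and 2.41 in Med22RNAi and 9.22, 9.40 and 9.20 in sa, at least 77.4-fold lower in the knockdown. Nepl10, of the neprilysin-like family, was at least 18-fold lower, and TyrRII, a tyramine receptor, at least 13.5-fold lower, both named after their values were seen. Others in the lower set were on in sa and low in aly and wild type without meeting this limit. Cyp6a2, a cytochrome P450, was at 3.15, 3.12 and 3.06 in Med22RNAi and 9.18, 9.67 and 8.98 in sa, a difference of -6.17 (SE 0.16, adjusted p = 4.97e-08), with means of 2.71 in aly and 2.38 in wild type. RabX2, a small GTPase, was at least 32.7-fold lower, and CG13806 at least 27.8-fold lower. The largest difference among called probe sets with 1 symbol was in pico, whose named probe set was at 2.73, 2.65 and 2.54 in Med22RNAi, 9.22, 9.60 and 9.66 in sa and 7.49 in wild type, at least 90.2-fold lower. Its other probe set differed by -2.87.

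Of 238 chemosensory receptor and binding protein genes, 191 lay below 3 on all 6 arrays, 8 were lower (3.36%) and 2 were higher (0.84%), where 4.27% and 4.57% of all probe sets were. Ir100a was at 2.27, 2.24 and 2.25 in Med22RNAi and 7.74, 8.23 and 8.07 in sa, at least 32.3-fold lower, and Ir85a was at least 25.8-fold lower. Ir11a was on only in Med22RNAi, at 7.12, 7.53 and 7.46, at least 20.7-fold higher than in sa, where all 3 arrays sat at the lowest value.

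Of the 857 higher probe sets 77 were above 3 only in Med22RNAi, with all 9 other arrays below 3. Cyp12d1-d, a mitochondrial cytochrome P450, was at 8.21, 8.67 and 8.92 in Med22RNAi and 2.11, 2.11 and 2.15 in sa, at least 48.5-fold higher. Its probe set may also read its near copy Cyp12d1-p. cdi, a protein kinase gene, was at 8.04, 8.61 and 7.80 against 2.35, 2.28 and 2.58, at least 35.5-fold higher. zfh1, a transcription factor of cyst stem cells, was at 6.29, 6.70 and 6.28 against 2.97, 2.20 and 2.57, at least 10.7-fold higher. Of 20 hub and cyst cell genes 3 (zfh1, chinmo and hh) were called higher, 15% where 4.57% of all probe sets were, and none lower. At an adjusted p under 0.05 alone 4 were higher and 4 lower, where 16.7% and 16.6% of all probe sets were. The median difference was 0.29. The difference of hh was 2.02, and 1.95, under 4-fold, without Med22RNAi replicate 2. spi, a ligand of the EGF receptor, differed by -1.72 and dome, the JAK-STAT receptor, by -1.68. trx, the trithorax methyltransferase, was at least 6.06-fold higher, and Rbfox1, an RNA-binding protein, at least 5.57-fold. dsx, Sxl, Ank2 and Nf1 were named after their values were seen. dsx and Sxl, of the sex determination pathway, were at least 8.35-fold and 7.35-fold higher in 1 of 2 and 1 of 3 probe sets, Ank2 was at least 11.1-fold higher in 1 of 5 and Nf1 at least 18.5-fold higher in 1 of 3.

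Contractile genes, some of which the muscle sheath of the testis expresses, were mostly higher in Med22RNAi than in sa. Of 21 measured genes of the contractile apparatus 12 were called higher (57.1%, where 4.57% of all probe sets were) and none was lower. The median difference was 2.24. TpnC4, a troponin C, was at 8.33, 8.56 and 8.69 in Med22RNAi and 2.60, 2.42 and 2.54 in sa, at least 46.1-fold higher. Mlc2, a myosin light chain, was at 10.10, 10.03 and 9.53 against 5.76, 5.06 and 7.31 (difference 3.84 ± 0.86, adjusted p = 0.00774). Mf, myofilin, was at 11.32, 11.05 and 10.60 against 7.40, 7.12 and 8.49, and Prm, paramyosin, at 11.50, 11.77 and 11.05 against 7.74, 8.04 and 8.98. Among the sa arrays replicate 3 was highest in Mlc2, Mf and Prm, but it stayed below every Med22RNAi array.

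bt, the titin-like projectin, was at 10.65, 10.73 and 9.90 in Med22RNAi and 6.85, 5.63 and 8.43 in sa, a difference of 3.45 ± 0.89 (adjusted p = 0.0152) that was no longer past the adjusted p without sa replicate 2, at 2.78. Act88F, an actin of the flight muscle, was at 7.22, 7.58 and 6.86 against 3.42, 4.63 and 3.91. Zasp66, Zasp52, Msp300, Obsc, Mlc1 and Mlp84B were the other calls, with differences of 2.12 to 2.95. Obsc lay below 3 on all sa arrays, so that its difference is at least 3.58-fold, which is under 4-fold, and its call was lost with quantile normalization applied again (1.78) and with values under 4 set to 4 (0.84). Mlp84B was under 4-fold without Med22RNAi replicate 1 (1.97) and with array medians set equal (1.90). Tm2, Mlp60A and TpnC73F passed the adjusted p but not 4-fold, with differences of 1.81, 1.37 and 1.2, and Act87E, Act79B, TpnC41C, flr, sls and up did not pass the adjusted p. The wild-type means of the called genes were nearer to sa than to Med22RNAi for TpnC4, Mlc2, Mf and Prm, at 2.42, 5.53, 8.34 and 8.26, and above both for Msp300, at 10.09.

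The summed signal of the 21 muscle genes was 14.33 to 14.81 on the log2 scale in Med22RNAi and 12.52 to 13.27 in sa. Sums of 19 hemocyte and basement membrane genes were 13.61 to 13.92 in Med22RNAi and 12.46 to 12.63 in sa, those of 6 ejaculatory duct genes 13.76 to 14.57 and 12.36 to 12.54, those of 10 fat body genes 10.30 to 10.54 and 9.64 to 10.18, and those of 20 hub and cyst cell genes 12.73 to 13.08 and 12.34 to 12.58. No ejaculatory duct gene was called, and 1 of the 6 passed the adjusted p. Of the 10 fat body genes 2 were called higher (20%, where 4.57% of all probe sets were) and 3 lay below 3 on all 6 arrays. At an adjusted p under 0.05 alone 3 of the 10 were higher and 1 lower. Their median difference was -0.003, so that the sum does not describe the fat body list as a whole. The sum of the 18 gut genes was lower in Med22RNAi, at 6.30 to 6.31 against 7.99 to 8.67 in sa. Most of this gap came from Mal-A6 alone, at 7.30, 8.22 and 7.66 in sa. Because 16 of the 18 lay below 3 on all 6 arrays, the sum does not describe the gut list as a whole. The sums of 8 spermatogonial genes overlapped, at 11.24 to 11.41 in Med22RNAi and 11.26 to 11.64 in sa. For 24 seminal fluid genes they overlapped, at 14.96 to 16.84 in Med22RNAi and 14.96 to 16.35 in sa. The part of muscle sheath, hemocytes or neighbouring tissue in these differences was not tested. Of the hemocyte list only crq, a scavenger receptor, was called (5.26% of 19, where 4.57% of all probe sets were higher). It was at 10.17, 10.46 and 10.38 in Med22RNAi and 8.46, 7.99 and 7.98 in sa (under 4-fold, at 1.98, with array medians set equal). Col4a1 and vkg, the type IV collagens, differed by 1.43 and 1.24 and LanA, a laminin, by 1.32, all past the adjusted p. At an adjusted p under 0.05 alone 8 of the 19 were higher and 1 lower, where 16.7% and 16.6% of all probe sets were. The lowest difference of the list was -1.93 and the median 0.61, and 4 of the 19 lay below 3 on all 6 arrays.

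**Figure D4:**
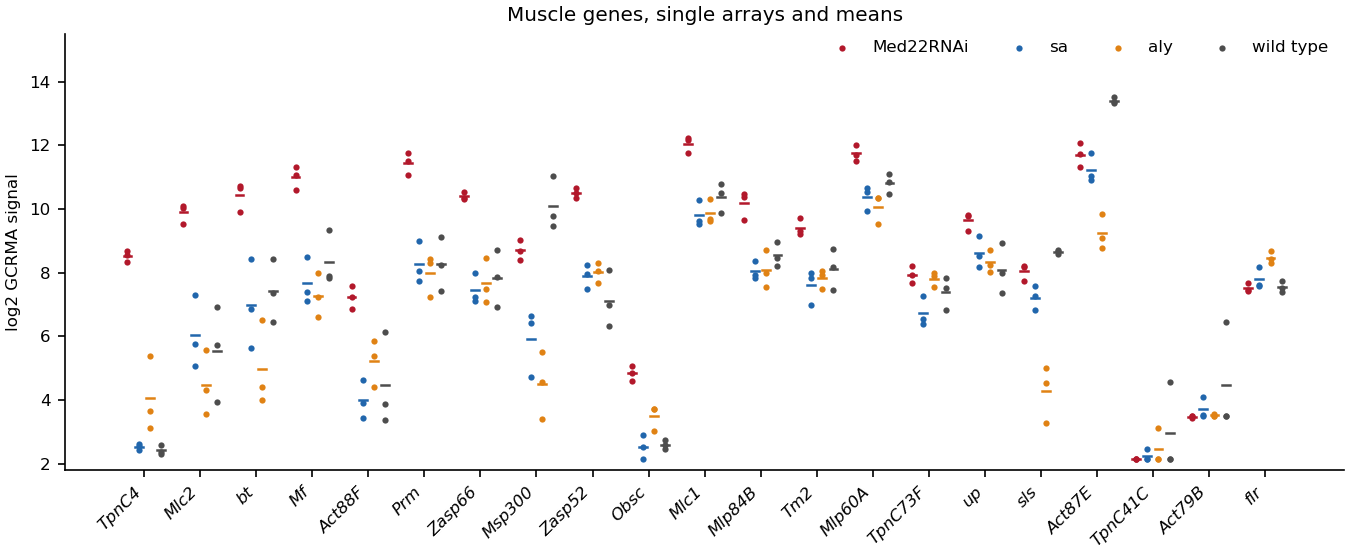
Log2 signal of the 21 measured muscle genes on single arrays (points, 3 per genotype) with the mean of each genotype (short bars), in Med22RNAi, sa, aly and wild-type testes, ordered by the difference between Med22RNAi and sa. The 12 genes from TpnC4 to Mlp84B were called higher in Med22RNAi.

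Glutathione S-transferases, which conjugate toxic compounds to glutathione, held 4 higher genes and no lower one among 34, with a median of 0.34. The share called higher was 11.8%, where 4.57% of all probe sets were. GstD3 was at 11.41, 11.24 and 11.28 in Med22RNAi and 7.03, 7.09 and 7.07 in sa (difference 4.24 ± 0.32, adjusted p = 1.52e-05), and GstD5 at 12.11, 11.98 and 12.28 against 8.11, 8.47 and 8.31. GstD2 was at least 8.57-fold higher, and GstE2 was at 5.88, 6.39 and 6.14 against 3.17, 2.82 and 2.77. GstD1, another member of the delta class, differed by 0.29. The delta class genes are related in sequence and their probe sets may read each other. Cyp12d1-d was the only higher gene among 83 cytochrome P450 genes, with Cyp6a2 and Cyp309a2 lower. These shares were 1.2% and 2.41%, where 4.57% and 4.27% of all probe sets were called, and 38 of the 83 lay below 3 on all 6 arrays.

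The antimicrobial peptide genes Drs and Mtk were higher, with spread among the Med22RNAi arrays. They were 2 of 9 measured (22.2%, where 4.57% of all probe sets were), and 3 of the 9 lay below 3 on all 6 arrays. Drs was at 7.80, 9.88 and 8.68 in Med22RNAi and 5.44, 6.38 and 6.60 in sa (difference 2.65 ± 0.63, adjusted p = 0.0107). Mtk was at 4.98, 7.11 and 6.41 against 4.54, 3.0 and 2.67, where the lowest Med22RNAi array was close to the highest sa array.

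Some regulators of transcription and RNA were also higher in Med22RNAi. brm, the ATPase of the SWI/SNF complex, was at 10.47, 11.06 and 10.42 in Med22RNAi and 7.86, 7.61 and 7.26 in sa (difference 3.07 ± 0.21, adjusted p = 9.65e-06). brm and trx were the 2 calls among 18 Polycomb and trithorax genes (11.1% higher, where 4.57% of all probe sets were). At an adjusted p under 0.05 alone 9 were higher and 1 lower, where 16.7% and 16.6% of all probe sets were. The median of the list was 0.49. SA1, a cohesin subunit, was at 8.31, 8.39 and 8.33 against 5.98, 4.88 and 5.88. heph, a polypyrimidine tract binding protein needed for sperm individualization, was at 11.03, 11.48 and 11.31 against 7.56, 6.16 and 7.37 (difference 4.24 ± 0.40). chinmo, a factor of cyst stem cells, was at 11.58, 12 and 11.59 against 9.85, 7.92 and 9.82, and its difference of 2.53 dropped to 1.89, below 4-fold, without sa replicate 2. pum, a translational repressor, was at 8.32, 8.80 and 8.71 against 6.43, 3.87 and 6.43, again with sa replicate 2 lowest.

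The kinesin unc-104 was at 9.85, 10.29 and 9.64 in Med22RNAi and 6.21, 5.33 and 7.0 in sa, with 3.64 in wild type, and Klp98A was higher by 3.14. B52, a splicing factor of the SR family, was at 8.52, 8.93 and 8.65 against 3.19, 2.98 and 3.29 in 1 of its 5 probe sets, and the others differed by -0.04 to 2.27. Rnf11, pot and CG16898 were among the largest differences, at 5.79, 5.67 and 6.07. CG16898 was at 12.86, 13.39 and 13.43 in Med22RNAi, against 7.62, 6.4 and 7.46 in sa. RpL22-like, a germ line form of a ribosomal protein, was at 12.80, 13.06 and 13.05 against 11.22, 10.44 and 11.21, and its difference of 2.01 fell below 4-fold without sa replicate 2 (1.75), without Med22RNAi replicate 2 (1.97) and without Med22RNAi replicate 3 (1.97). It was the only call among 41 cytoplasmic ribosomal proteins. eIF4G1, a scaffold of translation initiation, was higher by 2.24, and 1.82 without sa replicate 2.

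A few genes were within 2-fold of their wild-type level in Med22RNAi and low in sa. CG34460 was at 12.01, 12.41 and 12.13 in Med22RNAi, 7.60, 7.78 and 7.76 in sa, 12.04 in aly and 12.41 in wild type, a difference of 4.47 ± 0.12 (adjusted p = 6.48e-08). CG11034 was at 7.31, 8.35 and 8.61 in Med22RNAi, 3.14, 3.40 and 3.41 in sa and 8.46 in both aly and wild type. Kpc2, a subunit of a ubiquitin ligase, was at 10.70, 10.54 and 10.67 against 7.11, 7.06 and 7.20, with 7.46 in aly and 10.36 in wild type.

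Called genes also differed in the length of their genomic span in the release 6 annotation. Higher probe sets had a median span of 5606 bp, lower ones 2334.5 bp and those with no call 2517 bp. When probe sets were split into 5 groups of equal size by span, the share called higher was 4.24% in the shortest group and 9.78% in the longest, and the share called lower was 4.61% and 3.10%. Among probe sets with a mean of at least 6 in Med22RNAi or sa, a limit chosen after the data were seen, the share higher was 22.1% in the longest group (991 probe sets) and 4.09% to 8.44% in the others. The median difference in that longest group was 0.67, and without the limit it was 0. A probe set low in one genotype passes this limit only through its level in the other. The shares under the limit are therefore a description only. sa replicate 2, with its weaker 5′ control signal, moved with this result: without it the share was 17.1% and the median difference 0.51. With array medians set equal the share was 19.1%. These gaps in the 3′ to 5′ control signals differ between the genotypes, as given above, and their part in the result was not tested.

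**Figure D5:**
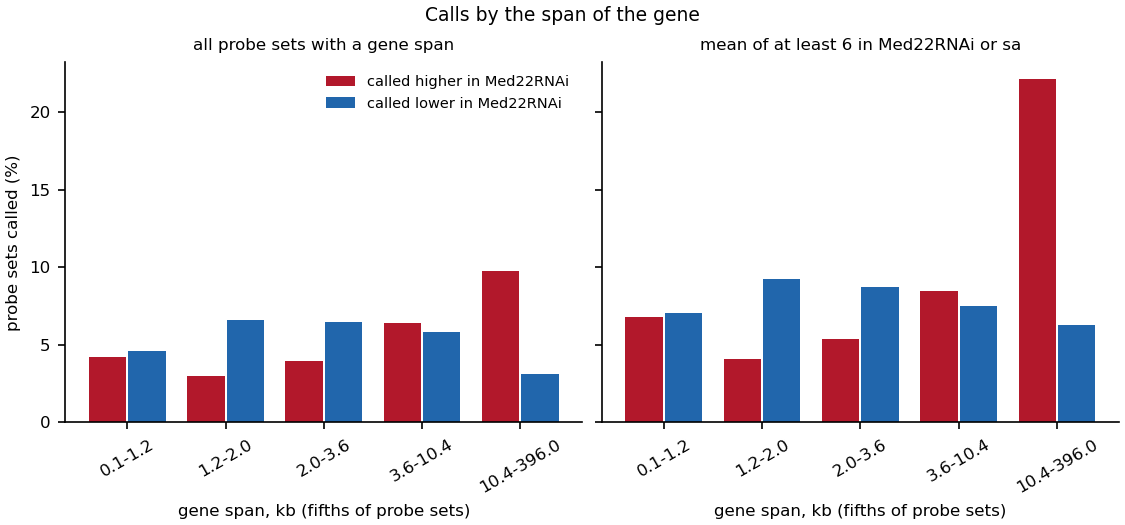
Share of probe sets called higher (red) or lower (blue) in Med22RNAi than in sa, in 5 groups by gene span in kb, for all probe sets with a span (left) and for those with a mean of at least 6 in Med22RNAi or sa (right). In the longest group the share called higher was 9.78% of all and 22.1% of those with a mean of at least 6.

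Different probe sets of the same gene could be called in opposite directions. This was seen in 7 of 243 genes with a called probe set among 1094 with several probe sets. Galphaq, a G protein alpha subunit, had a probe set at 2.86, 2.94 and 2.86 in Med22RNAi and 8.88, 8.38 and 9.04 in sa, and another at 7.53, 7.30 and 7.38 in Med22RNAi and 3.75, 2.46 and 3.99 in sa. oaf had a probe set at 10.58, 10.82 and 10.62 against 13.23, 13.00 and 13.09, and 2 others that were higher by 3.62 and 3.97. Fmr1, an RNA-binding protein, had 1 higher and 1 lower probe set, with differences of 2.48 and -2.13. Evi5, Ppcs, Sik3 and mod(mdg4) were the others. The levels of single transcript isoforms were not measured.

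The calls were spread over the chromosomes with 2 departures. On the X 3.52% of 2188 probe sets were higher and 7.82% were lower, while on the arms of chromosomes 2 and 3 the shares were 5.12% to 6.22% and 4.70% to 4.98%. On chromosome 4, which holds few genes, 12 of 82 probe sets (14.6%) were higher and 2 were lower.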

How the data were processed

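What the authors deposited for each array is a table of log2 signal, made with GCRMA (which subtracts background, equalises the arrays and summarises each probe set) per the labels, with no version stated. The methods say that the Med22RNAi arrays were analysed with the published ones, and all 12 share a lowest value of 2.11. Whether GCRMA was run on all of them at once is not given in the sources used here. Of 18952 rows 183 control probe sets were removed, and no filter on low signal was applied. The array annotation gave 1 symbol to 13647 probe sets, several to 402 and none to 4720, and 13544 were found in the release 6 gene table, used for spans and chromosomes. In a list, a gene is represented by its probe set with the highest mean over all arrays. MED22, CycA and gdl were not analysed.

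A linear model with 1 mean for each genotype was fitted to the 12 arrays together (limma 3.58.1, lmFit and eBayes, R 4.3.3), with the Benjamini-Hochberg adjustment across 18769 probe sets. Errors are standard errors of that fit. Where all arrays of a genotype lay under 3, it was set to 3 and the fold is a lower bound. Genes to name were the 12 largest differences each way, up to 4 called members of each of 51 lists, the 6 largest each way within 2-fold of wild type in either arrest, and label, in situ and paralog genes. Further members of the described lists were added after their values were seen. The members and lists were chosen with earlier results of these data known. A promoter motif search was not run. The fit was tested on simulated data. Python 3.11.15, pandas 2.3.3 and matplotlib 3.10.9 made tables and figures. Other fits, scalings, floors, filters and thresholds were tried, and each array was left out in turn.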

Additional observations from a re-analysis of the deposited data

How the results depend on the processing

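Without single arrays the count of probe sets higher in Med22RNAi was 746 to 893 and that of lower ones 792 to 839, the lowest higher count being without sa replicate 2. A call was kept in all 6 of these fits by 645 of the 857 higher and 666 of the 802 lower probe sets. At 2-fold the counts were 2140 higher and 2079 lower, with 8 glutathione S-transferases higher and 8 DNA replication genes lower. Setting values under 4 to 4 left 5 chemosensory genes lower and took the calls of 11 of 129 named genes that lie near the lowest values, such as CycE, trx and Sxl. Equal medians took 6, the fit to the 6 arrays alone 3 (Mtk, dj and pum) and an adjusted p under 0.01 took 5. No named gene changed direction under any of these settings. Same-numbered arrays did not deviate together (correlations of -0.24, -0.03 and -0.16), and with the replicate number as a block 848 probe sets were higher and 802 lower, with no call of a named gene lost. The number of arrays limits all counts, and levels near 2.11 carry no order.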
